A study of Mus musculus with 8 samples.

Results

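The genes described here build and maintain mitochondria: the translocases that bring proteins into the organelle, the enzymes that copy and transcribe its DNA, the prohibitins and the GTPases that fuse its membranes. They were measured in mouse epididymal white adipose tissue, a visceral fat depot attached to the epididymis, on Affymetrix 3′ expression arrays, with 1 array per animal. There were 4 LPA4-KO mice (Lpar4 -/Y, deficient in the lysophosphatidic acid receptor LPA4, encoded by an X-linked gene) and 4 wild-type (WT) controls. All were male littermates on the C57BL/6 background, aged 12 weeks and fed standard chow. Neither the deleted segment of Lpar4 nor the cells in which its loss acted is given in the sources used here. The members were all genes of the platform annotation whose symbols begin with Timm or Tomm and a digit, plus Phb, Phb2, Tfam, Tfb1m, Tfb2m, Polrmt, Polg, Twnk, Mfn1, Mfn2 and Opa1. The rule gave 36 genes, and 33 of them were measured by at least 1 probe set of their own, among 18193 measured genes. Phb, Tomm5 and Tomm6 had only probe sets that the annotation assigns to a second gene as well, and were not analysed here.

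Nearly all mitochondrial proteins are encoded in the nucleus and made in the cytosol, and they enter through the TOM complex of the outer membrane. Proteins with an N-terminal presequence pass on through the TIM23 complex of the inner membrane, while carrier proteins are escorted by the small TIM chaperones to the TIM22 complex. Inside, a dedicated RNA polymerase and its transcription factors express the small mitochondrial genome. In the fat cell mitochondria supply ATP and the citrate from which fatty acids are made.

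Levels are deposited values, taken as log2 and given as mean ± SD (n = 4 per group). Differences are LPA4-KO minus WT ± SE from limma. Many probe sets in this table were nearly constant: a gene was called varying if its probe set spanned over 0.1 log2 across the 8 arrays, which held for 4029 genes (22.1%). For a gene with several probe sets the brightest on average was taken. The test, limma with Benjamini-Hochberg adjustment and a threshold of 0.05, was run over all 18193 genes (the all-gene fit) and over the 4029 varying genes (the varying-gene fit). An exact two-sided permutation test of 4 against 4 arrays cannot give a p below 0.0286. Array medians ran from 6.50 to 6.51. Lpar4 fell at probe set 1452424_at (-0.71 ± 0.03, adjusted p = 0.0033 over all probe sets in limma) and did not fall at its other probe sets. At these LPA4-KO was higher, by 0.68 ± 0.24 at 1434186_at and 0.48 ± 0.25 at 1439665_at, with overlap between groups (adjusted p = 0.23 and 0.39 in limma). Which probe sets lie in the deleted segment is not known here. The fat cell markers Adipoq and Fabp4 were nearly constant at 13.83 and 13.40, near the top of a scale that ended at 14.07. Ucp1, which defines brown fat cells, was nearly constant at 6.01, and all 4 measured markers of the adjoining epididymis were nearly constant.

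A minority of these genes passed the test, each of them higher in LPA4-KO than in WT fat and by a small difference: 4 genes of the TIM import machinery, Phb2 and Polrmt. Of the 33 genes, 14 varied, and all 14 had a positive difference, with a median of 0.26 log2 and a range from 0.02 to 0.58. In the 4029 varying genes 46.6% had a positive difference and the median was -0.03. In the all-gene fit 4 of 33 rose, Timm17b, Timm50, Phb2 and Polrmt, where 0.863% of all genes did, and 0 fell, where 0.451% of all genes did. At an unadjusted p under 0.05 limma had 12 members higher (10 of them varying) and 0 lower. Of all 18193 genes 1839 were higher and 1364 lower at that limit. These 2 counts are the background of later counts at an unadjusted p in this fit. In the varying-gene fit Timm10 and Timm13 passed as well, making 6 of 14 higher beside 9.78% of varying genes, and 0 lower beside 11.5%. The LPA4-KO arrays all lay above the WT arrays in 7 of the 14, beside 14.4% of varying genes.

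**Figure D1:**
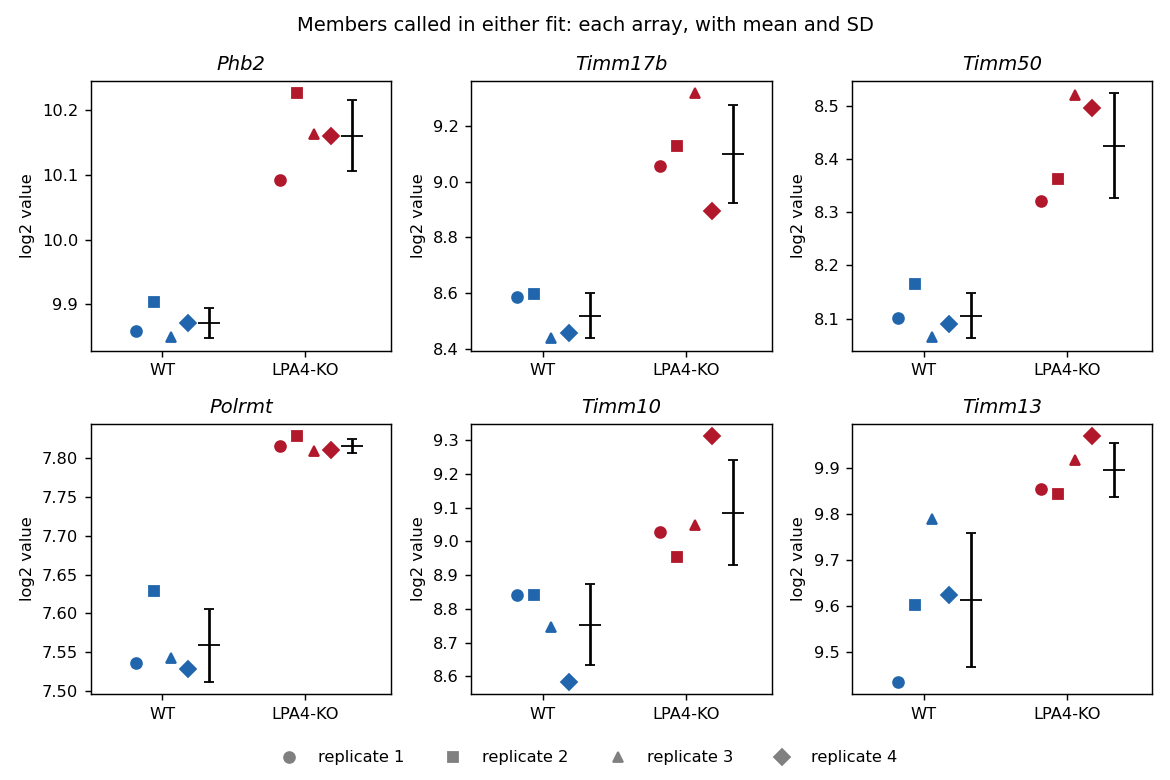
Log2 values (vertical axis) of the 6 genes that passed in either fit on each of the 4 WT and 4 LPA4-KO arrays, with marker shapes for the replicate numbers and bars for the mean and SD. In all 6 genes the lowest LPA4-KO array lies above the highest WT array, most narrowly in Timm13, with a gap of 0.05 log2.

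Phb2 encodes prohibitin 2, which forms ring-shaped assemblies with prohibitin 1 in the inner membrane. It stood at 10.09, 10.23, 10.16 and 10.16 in LPA4-KO replicates 1 to 4 and at 9.86, 9.90, 9.85 and 9.87 in WT replicates 1 to 4. The groups were 0.19 log2 apart at their nearest arrays. The difference was 0.29 ± 0.03 (1.22-fold, adjusted p = 0.023 in limma). Phb2 had the widest support from separate probe sets. Besides the one above, 1455713_x_at, probe set 1416202_at differed by 0.27 ± 0.03 and 1438938_x_at by 0.34 ± 0.04 (adjusted p = 0.025 and 0.031 in limma over all single-gene probe sets, of which 0.612% were called higher). Neither overlapped between groups, and its remaining probe set, 1460035_at, was nearly constant. The name ending _x_at marks sets in which some probes also match other sequences. The probe sets share the arrays and the RNA, so they are repeated readings and not replicates.

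Polrmt encodes the RNA polymerase that transcribes mitochondrial DNA and makes the primers for its replication. Its values were 7.81, 7.83, 7.81 and 7.81 in LPA4-KO mice and 7.54, 7.63, 7.54 and 7.53 in WT mice. The 4 LPA4-KO arrays lay closer together (SD 0.01) than the WT arrays (SD 0.05). The difference was 0.26 ± 0.02 (1.19-fold, adjusted p = 0.021 in limma), and in the varying-gene fit its SE was 0.06 (adjusted p = 0.021). The second Polrmt probe set was nearly constant.

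In the TIM23 complex 2 of 6 measured genes rose and 5 of 6 varied. Timm17b, which encodes a subunit of the channel, had the largest difference among all members. It stood at 9.06, 9.13, 9.32 and 8.90 in LPA4-KO mice and at 8.59, 8.60, 8.44 and 8.46 in WT mice. The spread among LPA4-KO arrays (SD 0.18) was wider than in WT (SD 0.08), and the groups lay 0.30 log2 apart. Timm17b rose by 0.58 ± 0.09 (1.5-fold, adjusted p = 0.0498 in limma). This reading came from 1438656_x_at alone, since its other probe set, 1460685_at, was nearly constant. Timm17b and Timm8a1 are the 2 members on the X chromosome, where Lpar4 also lies.

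Timm50 encodes the receptor that takes presequences over from the outer membrane. Its values were 8.32, 8.36, 8.52 and 8.50 in LPA4-KO mice and 8.10, 8.17, 8.06 and 8.09 in WT mice. The difference of 0.32 ± 0.05 (1.25-fold) had an adjusted p of 0.0498 in limma, and the groups lay 0.16 log2 apart. This reading came from 1455456_a_at alone, since the other Timm50 probe sets, 1441819_x_at and 1459830_at, were nearly constant. The other TIM23 genes did not pass in either fit. Timm21, which couples the translocase to the respiratory chain, stood at 8.58 ± 0.10 against 8.33 ± 0.11 without overlap (0.26 ± 0.07, adjusted p = 0.15 in limma, and 0.052 in the varying-gene fit). Timm23, the channel-forming subunit, differed by 0.15 ± 0.09, and Timm44, which anchors the import motor at the channel, by 0.13 ± 0.05. In both the groups overlapped. Timm17a, the paralog of Timm17b, was nearly constant at 9.82 in both groups, so the paralogs cannot be compared.

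Of the 9 measured genes of the small TIM chaperones and the TIM22 complex, 4 varied, all of them chaperones, and 2 passed in the varying-gene fit only. Timm10, which forms a hexamer with Timm9, stood at 9.03, 8.95, 9.05 and 9.31 in LPA4-KO mice and at 8.84, 8.84, 8.75 and 8.58 in WT mice. LPA4-KO replicate 4 was the highest array and WT replicate 4 the lowest. The difference was 0.33 ± 0.10 (adjusted p = 0.15 in the all-gene fit and 0.038 in the varying-gene fit of limma). Timm13, the partner of Timm8 proteins, stood at 9.85, 9.84, 9.92 and 9.97 in LPA4-KO mice and at 9.44, 9.60, 9.79 and 9.62 in WT mice. Here WT replicate 1 was the lowest array, and WT replicate 3 came within 0.05 log2 of the LPA4-KO arrays. Its difference was 0.28 ± 0.08 (adjusted p = 0.13 and 0.038 in the 2 fits of limma).

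Timm8a1, the mouse counterpart of the human deafness-dystonia gene TIMM8A, had means of 8.54 ± 0.05 in LPA4-KO mice and 8.25 ± 0.26 in WT mice. The groups overlapped: WT replicates 1 and 2 were at 8.50 and 8.45, and WT replicates 3 and 4 at 8.09 and 7.97. Timm8b differed by 0.10 ± 0.06 with overlap. The carrier translocase genes Timm22, Timm29 and Timm10b, and the chaperone genes Timm9 and Timm8a2, were nearly constant.

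In the outer membrane, 1 of 8 measured TOM genes varied at the probe set that stood for it, and limma called 0 of 8 in either fit, with 1 at an unadjusted p under 0.05 in the all-gene fit. That was Tomm40, the gene of the channel, which stood at 7.68, 7.67, 7.56 and 7.79 in LPA4-KO mice and at 7.52, 7.59, 7.31 and 7.36 in WT mice. LPA4-KO replicate 3 lay below WT replicate 2, so the groups overlapped (0.23 ± 0.08, adjusted p = 0.21 in limma, exact permutation p = 0.057). The brightest probe sets of Tomm20 and Tomm70a, which encode the receptors for presequence and carrier proteins, were nearly constant at 11.94 and 9.15. Their other probe sets were not all so. At 3 of 6 Tomm20 probe sets that varied, the differences were 0.06 ± 0.04, 0.08 ± 0.09 and 0.13 ± 0.09, and at 2 of 5 Tomm70a probe sets they were 0.14 ± 0.06 and 0.15 ± 0.11. All 5 were positive and all overlapped between groups. Tomm7, Tomm20l, Tomm22, Tomm34 and Tomm40l were nearly constant.

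**Figure D2:**
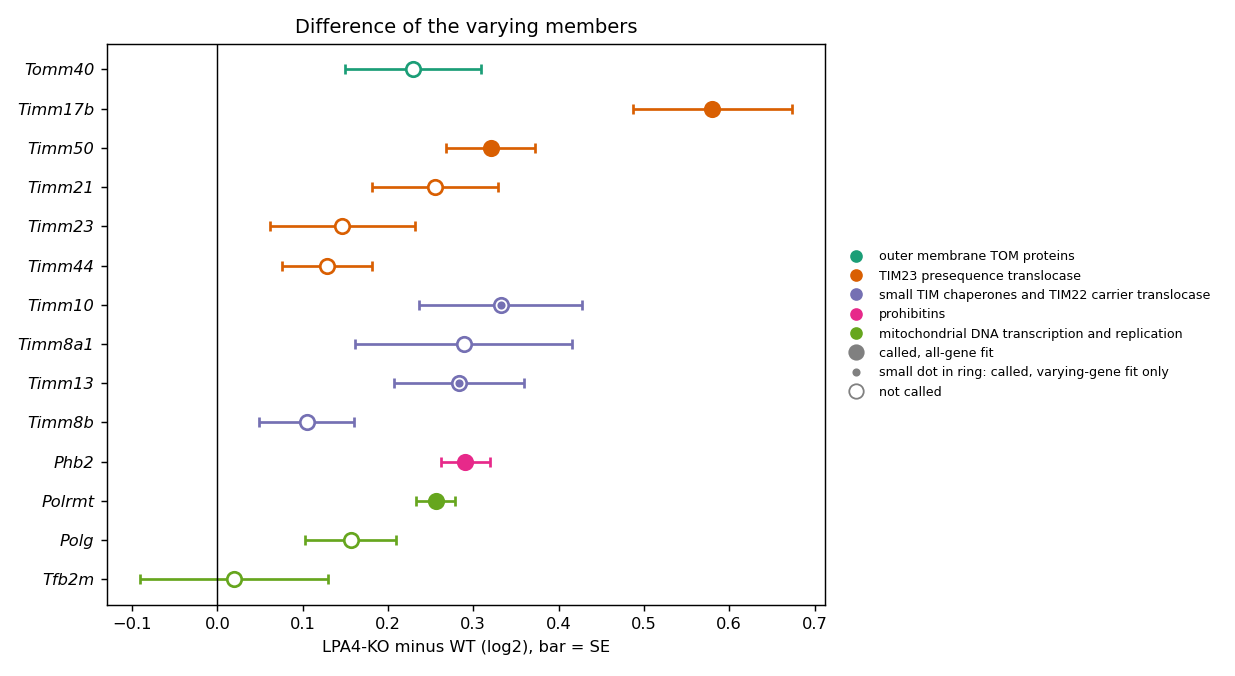
Difference between LPA4-KO and WT means (horizontal axis, log2) of the 14 varying genes, with bars for the SE of the all-gene fit and colours for the role. Filled circles passed in the all-gene fit and rings with a dot in the varying-gene fit only, and the points run from 0.02 for Tfb2m to 0.58 for Timm17b.

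Among the 6 genes of mitochondrial DNA transcription and replication, 3 varied and only Polrmt passed in either fit. Polg, the gene of the catalytic subunit of the DNA polymerase of mitochondria, stood at 7.88, 7.94, 7.89 and 8.01 in LPA4-KO mice and at 7.90, 7.70, 7.79 and 7.71 in WT mice. WT replicate 1 lay within the LPA4-KO range. The difference was 0.16 ± 0.05 (adjusted p = 0.21 in limma, exact permutation p = 0.086). The other Polg probe sets, 1423273_at and 1437564_at, were nearly constant. Tfb2m encodes the factor that opens mitochondrial promoters together with the polymerase. Its means were 9.16 ± 0.11 in LPA4-KO mice and 9.14 ± 0.20 in WT mice (0.02 ± 0.11), with overlap. Tfam, which packages mitochondrial DNA and starts its transcription, was nearly constant at 8.13. Tfb1m, which methylates mitochondrial ribosomal RNA, was nearly constant at 7.75, and Twnk, the helicase gene, at 7.49.

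The 3 fusion genes were nearly constant at the probe sets that stood for them. Mfn1 and Mfn2, the outer membrane fusion GTPases, stood at 8.28 and 9.57 in both groups, and none of their 5 probe sets varied. Opa1, the inner membrane fusion GTPase, spanned 0.01 log2 at 1434890_at. At another probe set, 1449214_a_at, it varied, with 7.68, 7.73, 7.74 and 7.80 in LPA4-KO mice and 7.65, 7.66, 7.54 and 7.46 in WT mice. The groups did not overlap there, by 0.01 log2 (0.16 ± 0.05, adjusted p = 0.20 in limma over all single-gene probe sets).

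A nearly constant value here is not a measured lack of change. The 19 nearly constant genes spanned at most 0.01 log2, with mean levels from 5.47 to 11.94. Of 21 members with more than 1 probe set, 10 had a varying probe set beside a nearly constant one and 11 had none that varied. Among the 72 probe sets of all members 22 varied, for 17 genes. All 22 differences were positive, and in 10 of the 22 the groups did not overlap. Several of the 22 are repeated readings of the same gene. Shares over all varying probe sets are not given here. Per gene, 46.6% of varying genes had a positive difference, and 14.4% had every LPA4-KO array above every WT array.

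**Figure D3:**
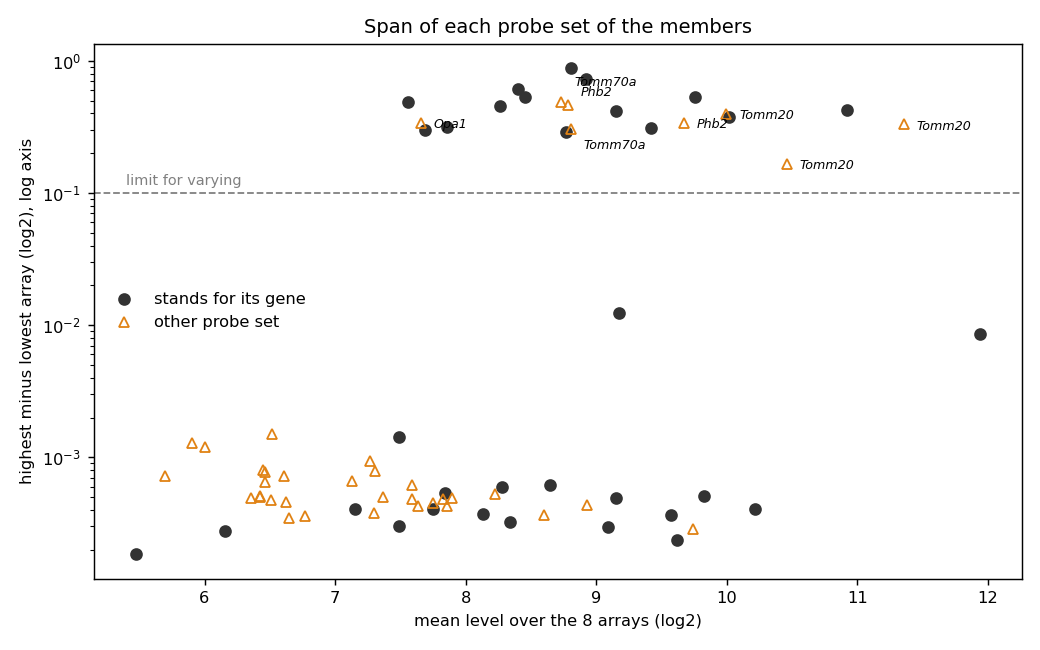
Span between the highest and lowest array (vertical axis, log2, drawn on a log axis) against the mean level over 8 arrays (horizontal axis, log2) for the 72 probe sets of the members. The 22 probe sets above the limit of 0.1 lie apart from the rest, and Opa1, Tomm20 and Tomm70a have triangles above it although the probe set that stands for the gene lies below.

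The WT arrays were not alike in these genes. In 6 of 14 varying members (42.9%) WT replicates 3 and 4 both lay below WT replicates 1 and 2, beside 22.3% of all varying genes. The reverse order was seen in 1 of 14 (7.14%), beside 24.3%. This split was chosen after the values were seen. It was plainest at the varying probe sets of Tomm20, at 1417192_at of Tomm70a and in Tfb2m and Timm8a1, where WT replicates 1 and 2 stood among or next to the LPA4-KO arrays. Averaged over the 14 varying members, the arrays ran from 8.94 to 9.03 in LPA4-KO mice and from 8.66 to 8.79 in WT mice.

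**Figure D4:**
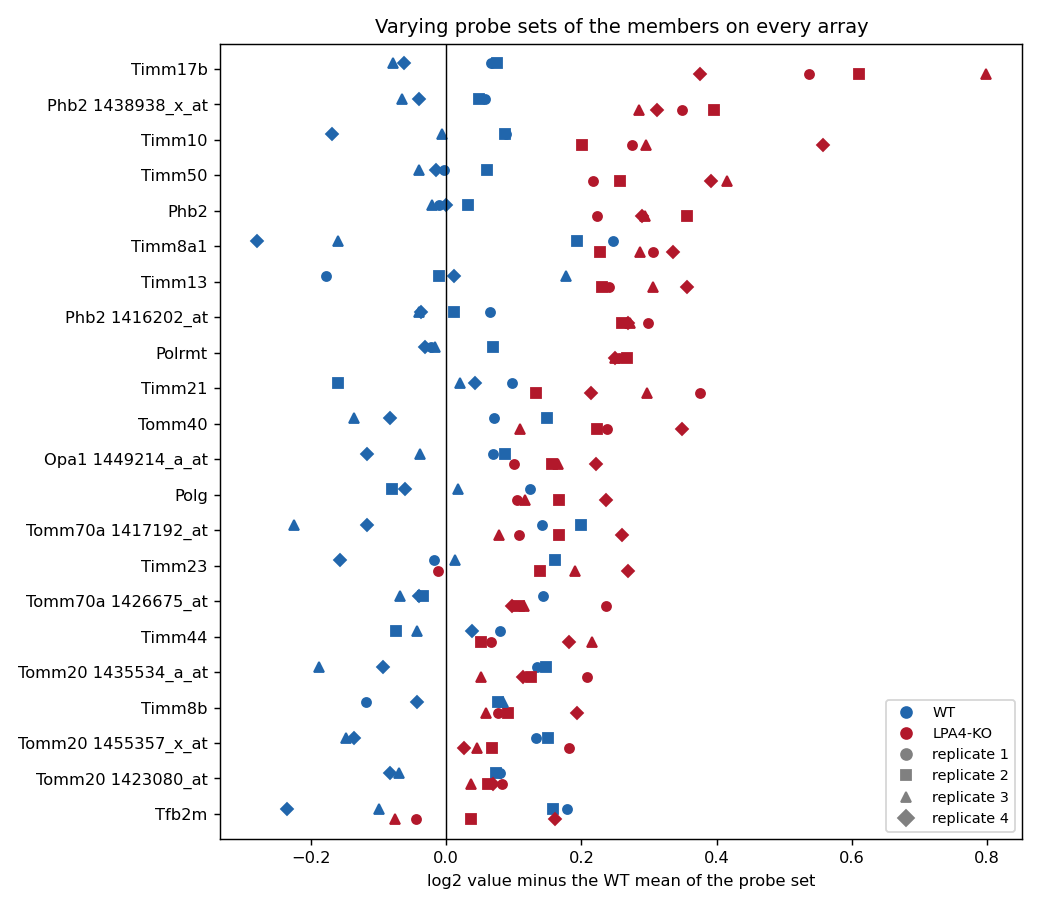
Each of the 22 varying probe sets on every array, as the log2 value minus the WT mean of that probe set (horizontal axis), with colour for genotype, shape for replicate number and the probe set named where it did not stand for its gene. The difference shrinks from Timm17b at the top to Tfb2m at the bottom, and at the Tomm20 and Tomm70a probe sets WT replicate 1 stands among the LPA4-KO arrays.

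The calls of the all-gene fit leaned on every array, and over all genes those called higher fell from 157 to between 8 and 70. Without LPA4-KO replicate 1, 2, 3 or 4 the number of members called was 1, 1, 0 and 0, and without WT replicate 1, 2, 3 or 4 it was 2, 1, 0 and 0. Phb2 kept its call in 3 of these 8 fits, Polrmt in 2, and Timm17b and Timm50 in 0. In the varying-gene fit Phb2, Timm17b and Timm50 kept theirs in 8 of 8, Polrmt in 4, Timm10 in 3 and Timm13 in 1. Each of the 6 stayed positive in every such fit, which was fixed in advance because their groups did not overlap. Of the 14 varying genes 13 stayed positive without LPA4-KO replicate 4, WT replicate 3 or WT replicate 4, where Tfb2m turned negative.

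Promoters are shown for the 4 genes that rose in the all-gene fit, whose shared control was not tested. That of Tfam is shown because this gene serves the same mitochondrial genome as Polrmt and was nearly constant. Each promoter is the 250 bases before the start of transcription, from RefSeq (GRCm38.p6), written in the direction of the gene. Capitals mark the letters CCGGAAG on either strand, which the GABP factor (nuclear respiratory factor 2), a known regulator of mitochondrial genes, recognises.
Phb2 promoter, chr6:124712039-124712288, plus strand: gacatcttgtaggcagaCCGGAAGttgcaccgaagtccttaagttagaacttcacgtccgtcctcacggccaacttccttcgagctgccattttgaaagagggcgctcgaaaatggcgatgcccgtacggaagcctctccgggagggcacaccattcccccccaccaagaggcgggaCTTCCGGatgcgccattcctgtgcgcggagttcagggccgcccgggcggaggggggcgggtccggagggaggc
Polrmt promoter, chr10:79746582-79746831, minus strand: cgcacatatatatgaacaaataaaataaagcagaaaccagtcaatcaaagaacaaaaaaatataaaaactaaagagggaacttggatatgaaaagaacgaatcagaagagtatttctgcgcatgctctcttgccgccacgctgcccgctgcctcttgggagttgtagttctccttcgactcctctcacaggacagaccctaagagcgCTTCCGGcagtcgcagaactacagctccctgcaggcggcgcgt
Timm50 promoter, chr7:28312047-28312296, minus strand: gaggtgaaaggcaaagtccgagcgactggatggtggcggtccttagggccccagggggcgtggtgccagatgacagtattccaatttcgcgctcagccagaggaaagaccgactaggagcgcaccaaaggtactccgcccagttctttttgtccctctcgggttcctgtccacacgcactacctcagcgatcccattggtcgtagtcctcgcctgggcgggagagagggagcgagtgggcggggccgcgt
Timm17b promoter, chrX:7899086-7899335, plus strand: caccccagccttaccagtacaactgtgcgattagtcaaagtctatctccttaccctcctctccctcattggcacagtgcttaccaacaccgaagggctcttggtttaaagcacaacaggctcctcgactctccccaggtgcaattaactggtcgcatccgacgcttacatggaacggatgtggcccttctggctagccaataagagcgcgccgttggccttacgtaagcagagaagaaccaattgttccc
Tfam promoter, chr10:71238045-71238294, minus strand: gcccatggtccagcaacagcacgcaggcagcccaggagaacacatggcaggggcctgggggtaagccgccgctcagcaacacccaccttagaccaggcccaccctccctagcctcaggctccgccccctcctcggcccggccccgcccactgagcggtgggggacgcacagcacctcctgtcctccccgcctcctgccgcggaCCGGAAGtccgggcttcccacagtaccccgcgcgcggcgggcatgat

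The searched window ran from 250 bases before to 50 after the start, and 30 of the 33 genes had an entry. CCGGAAG was found in 15 of the 30, beside 9.93% of all genes of the promoter table and 15.9% of varying genes. It was found in 6 of 13 varying members (46.2%) and in 9 of 17 nearly constant members (52.9%). Phb2 had it 233 and 73 bases before the start and again within the transcript, and Polrmt 43 bases before. Tfam had it 47 bases before, and Timm50 and Timm17b had no match. The NRF1 motif was found in 4 of 30 (13.3%), beside 10.2% of varying genes, 5.19% of all genes of the promoter table and 4.60% of all promoters, of which a gene can have several. These were Polrmt, where 2 overlapping matches cross or touch the start, and Timm8b, Tomm20 and Opa1. The ERR motif TCAAGGTCA was found in Timm8b alone among the members, beside 0.466% of all genes of the promoter table and 0.373% of varying genes. The YY1 motif AAGATGGC was found in Timm50 alone, beside 3.19% and 4.45%. Both strands were searched, and no match of one motif overlapped a match of another in the members. These matches describe the letters in the window and not binding.

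Other genes of the same machinery, from lists named with earlier results of these data known, were also mostly higher where they varied. Of 22 measured import genes outside the rule 15 varied, all with a positive difference, beside 46.6% of all varying genes, and a median of 0.22 log2. In the all-gene fit of limma 4 rose and 0 fell (0 lower at an unadjusted p under 0.05), beside 0.863% and 0.451% of all genes, and in the varying-gene fit 7 rose and 0 fell, beside 9.78% and 11.5% of varying genes. The same shares are the background of the next lists. Chchd4, the oxidoreductase that traps small TIM proteins in the intermembrane space by forming their disulfide bonds, stood at 8.65, 8.67, 8.91 and 8.93 in LPA4-KO mice and at 8.32, 8.20, 8.32 and 8.28 in WT mice. It rose by 0.51 ± 0.08 (adjusted p = 0.041 in limma). Xpnpep3, a peptidase that trims imported proteins, rose by 0.28 ± 0.04, and Immp1l, a subunit of the inner membrane peptidase, by 0.23 ± 0.04. The folding chaperone gene Hspd1 rose by 0.28 ± 0.03. Hspa9, the chaperone of the import motor, differed by 0.34 ± 0.08 and passed in the varying-gene fit only (adjusted p = 0.022 in limma).

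Of 24 measured genes of mitochondrial DNA expression and upkeep 6 varied, with 1 called higher and 0 lower in both fits of limma (2 lower at an unadjusted p under 0.05 in the all-gene fit, both nearly constant). Lrpprc, which stabilises mitochondrial messenger RNA, stood at 7.995, 8.01, 7.93 and 8.08 in LPA4-KO mice and at 7.65, 7.72, 7.50 and 7.59 in WT mice. It rose by 0.39 ± 0.05 (adjusted p = 0.036 in limma). The coactivator genes Ppargc1a (0.13 ± 0.15) and Ppargc1b (0.16 ± 0.09), which drive mitochondrial biogenesis in brown fat and muscle, overlapped between groups.

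Of 25 genes of fission, quality control and cristae shape 9 varied, 8 with a positive difference, and 2 rose while 0 fell in the all-gene fit of limma (5 and 0 in the varying-gene fit, with 0 lower at an unadjusted p under 0.05 in the former). Chchd3, a subunit of the MICOS complex that shapes cristae, rose by 0.25 ± 0.03 (adjusted p = 0.029 in limma) and Mtfp1, an inner membrane protein linked to fission, by 0.38 ± 0.06 (adjusted p = 0.0498 in limma). The core MICOS gene Immt differed by 0.35 ± 0.07 and passed in the varying-gene fit only (adjusted p = 0.018 in limma). Dnm1l, the fission GTPase, differed by 0.18 ± 0.06 with overlap, and Parl, a protease of the inner membrane, by -0.03 ± 0.04.

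Most markers of progenitor, mesothelial and macrophage cells had lower means in LPA4-KO in the same arrays, and few of them passed the test. All 7 measured progenitor and fibroblast markers, all 7 mesothelial markers and 6 of 6 varying macrophage markers had a negative difference, as did 2153 of the 4029 varying genes. In the all-gene fit limma called 1 of 7 progenitor, 0 of 7 mesothelial and 0 of 7 macrophage markers lower, beside 0.451% of all genes. At an unadjusted p under 0.05 it counted 3, 5 and 3 lower, beside 1364 of all 18193 genes. In the varying-gene fit it called 2, 3 and 2 lower, beside 11.5%. Of 5 endothelial markers 2 varied, 1 in each direction, and limma called 0 in either fit (1 lower at an unadjusted p under 0.05 in the all-gene fit). Endothelial sums of linear values overlapped, at 2503 to 2621 in LPA4-KO mice and 2478 to 2647 in WT mice. The summed linear values of the progenitor markers ran from 13892 to 17094 in LPA4-KO mice and from 17761 to 20375 in WT mice, without overlap. For macrophage markers the sums were 9172 to 10346 and 10413 to 12791, while the mean log2 value of the list overlapped, at 9.88 to 10.06 in LPA4-KO mice and 10.03 to 10.25 in WT mice (exact permutation p = 0.057). Mesothelial sums overlapped, at 1689 to 2461 and 2361 to 4358. Among 9 measured fat cell markers 7 varied, 6 with a positive difference and 1 negative, beside 46.6% positive in all varying genes. Limma called 0 in either fit (1 higher at an unadjusted p under 0.05 in the all-gene fit, Retn). Fat cell sums ran from 50916 to 54231 in LPA4-KO mice and from 49358 to 50958 in WT mice, with overlap. The mean log2 values of the list overlapped too, at 11.85 to 11.90 and 11.71 to 11.96 (exact permutation p = 0.51). Both the sums and the means hold the bright, nearly constant Adipoq and Fabp4, whose values are not a measured lack of change. Of 5 brown fat markers 2 varied, Cidea (0.28 ± 0.21) with overlap and Cox8b (0.41 ± 0.17) without. Neither passed in either fit. The sums of this list, which also hold the nearly constant Ucp1, Elovl3 and Dio2, did not overlap. They ran from 505.5 to 695.4 in LPA4-KO mice and from 463.3 to 502.0 in WT mice. The mean log2 values of this list overlapped narrowly, at 6.527 to 6.842 in LPA4-KO mice and 6.455 to 6.530 in WT mice (exact permutation p = 0.057). The part of these markers in the differences of the mitochondrial genes was not tested, and in whole tissue fewer cells of a type and less RNA per cell cannot be told apart.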

How the data were processed

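The deposited table holds log2 values, 1 per probe set and array, as made by the authors. Per the submitters' processing notes R 2.14.0 was used. The normalization, probe summary and log base of the values were not given in the sources used here. A log2 scale was taken from the range of the values (5.27 to 14.07). Precision is limited by the number of arrays, since arrays give no count of depth.

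Groups and replicate numbers came from the labels, which name biological replicates. Of 45101 probe sets, 34945 had 1 gene symbol in the platform annotation and were used, and 932 had several and were left out. Through the Entrez number 34741 matched RefSeq (GRCm38.p6). Each gene was represented by the probe set with the highest mean. Genotypes were tested in R 4.3.3 with limma 3.58.1 (lmFit, eBayes with a trend, no block), Benjamini-Hochberg adjusted over all genes in the fit, and with exact permutation tests. The fit was also run on simulated data for the varying genes and the members only, so the all-gene fit was not simulated.

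The members, the lists, the limit for varying genes and the tests were chosen with earlier results of these data known. Array values are given for members called in either fit and for Tfam, Polg, Twnk, Mfn1, Mfn2 and Opa1 where they varied, and Opa1, Tomm40 and Timm8a1 were added after their values were seen; of the other lists, genes called in the all-gene fit are named, and Hspa9, Immt, Dnm1l, Parl, Ppargc1a and Ppargc1b were chosen after their values were seen. Alternatives were filters, scalings, variance models, the replicate number as a block, other uses of probe sets and each array left out.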

Additional observations from a re-analysis of the deposited data

Results flagged for a closer look

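Polrmt in WT replicate 2 stood at 7.63, while the other 3 WT arrays lay between 7.53 and 7.54, and the gap was 0.858 of the range of the group. This was the only one of 28 groups of 4 arrays (14 varying genes in each genotype) to stand out in this way, and chance does so in about 1 in 20 groups. Without that array Polrmt differed by 0.28 log2 (adjusted p = 0.00048 in limma), and its adjusted p over all single-array omissions in the all-gene fit ran from 0.00048 to 0.064.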

How the results depend on the processing

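All 14 varying genes had a positive difference as deposited and under each of the 4 scalings. The named genes Phb2, Polrmt, Timm17b, Timm50, Timm10, Timm13 and Polg kept that direction under every alternative run. Much of this was fixed in advance. The filters, the variance models and the block leave the difference itself unchanged. Leaving out 1 array cannot reverse it in a gene without overlap between groups. Of 196 results for the named genes 145 stayed on their side of the threshold, 37 lost it and 14 gained it. The number of members called higher, 4 over all genes, was 14 after quantile normalization (10 of them varying, with 8799 genes called higher and 637 lower over all genes, 93.2% higher beside 65.7% as deposited). It was 7 after either quantile normalization or median centring within the varying genes (57.2% and 54.2% of calls higher, beside 45.9%), and 2 with every probe set on its own. It was also 2 with the widest-span probe set for each gene, an alternative chosen after seeing the data, where Timm17b and Timm50 missed the threshold (adjusted p = 0.051 and 0.052 in limma). With 1 array left out it ran from 0 to 2 over all genes, where calls fell from 157 higher to between 8 and 70. In the varying genes it ran from 3 to 7, where calls fell from 394 higher to between 194 and 392. Limma called 0 lower in every alternative (at an unadjusted p under 0.05, 1 without LPA4-KO replicate 3 and 0 in the other fits with 1 value per gene). The median difference of varying members, 0.26 log2, was 0.15 with the mean of all probe sets of a gene and 0.20 with every varying probe set on its own (the first averages in nearly constant probe sets, the second adds those of Opa1, Tomm20, Tomm70a and Phb2), and ran from 0.22 to 0.28 with 1 array left out. With the replicate number as a block, limma called 0 members and 0 genes in the all-gene fit. There 9 members had an unadjusted p under 0.05, beside 3096 of 18193 genes. In the varying-gene fit with this block limma called 6 members, Timm21 taking the place of Timm10. Deviations of same-numbered arrays correlated at 0.02, 0.08, 0.24 and -0.18, and not every array correlated best with its own number, so the numbers were not taken to pair the mice.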
